A study of Mus musculus and Rattus norvegicus with 28 samples.

Results

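The genes described here are 10 components of the intercalated disc, the specialised border at which neighbouring cardiomyocytes are joined end to end. They were chosen by gene symbol, and all 10 were found among 55450 genes in the mouse tables, while 8 were found among 32623 genes in the rat tables. The rat tables hold Pkp2 and Ctnna3 under neither symbol, and both are not analysed here in rat. The disc combines several kinds of contact. Gap junctions are channels built from connexins that pass ions and electrical current from cell to cell. Adherens junctions couple the actin of neighbouring myofibrils through a cadherin and its catenins, and desmosomes anchor intermediate filaments through desmosomal cadherins, armadillo proteins and desmoplakin. In the fetal and newborn ventricle these proteins lie scattered over the cell surface and gather at the cell ends as the heart matures, and inherited defects in desmosomal genes are a known cause of arrhythmogenic cardiomyopathy.

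The study followed cardiomyocytes across birth. Cells were released with trypsin and collagenase from the left ventricles of wild-type C57BL/6 mice of mixed sex at embryonic day 18.5 (E18.5) and postnatal days 1, 3 and 7 (P1, P3 and P7), and were pre-plated to remove cells that attach early. RNA-seq of polyadenylated RNA and ATAC-seq, a transposase assay of open chromatin, each had 2 libraries at each age. Ventricular cardiomyocytes of Sprague Dawley rats at P1 were cultured and, 1 day after plating, received 100 nM trichostatin A (TSA, a histone deacetylase inhibitor) or the solvent DMSO, and 3 RNA-seq libraries were made for each group. The study speaks of biological replicates, but the labels do not tie libraries to separate animals or cultures, so p values measure the spread between libraries, which may in part be technical. The 6 HiChIP libraries are not analysed here.

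Mouse libraries held 29.3 to 37.5 M aligned reads and rat libraries 28.2 to 38.5 M, a depth obtained by dividing coverage by FPKM. The labelled cell type was compared with its markers before the junction genes were read. The 16 cardiomyocyte markers, all present in every mouse library, summed to 34540 to 44330 FPKM at E18.5, 17650 to 27590 one day after birth, 10210 to 12070 by P3 and 1630 to 3300 by P7, where 16 of 16 passed the test as lower than at E18.5. Troponin T (Tnnt2) was at 6141 and 7172 FPKM at E18.5 and at 710 and 330 at P7. The 12 fibroblast markers summed to 473 to 478 FPKM at E18.5 and 3020 to 3747 at P7, with 11 higher and 0 lower, and decorin (Dcn) rose from 84.5 and 85.5 FPKM to 617 and 626. The 7 erythroid genes summed to 29050 to 35400 FPKM at E18.5 and to between 11 and 12 at P7. Of 10 smooth muscle and pericyte markers 5 were higher and 3 lower at P7, and their sum went from 431 to 560 FPKM at E18.5 to 1671 to 1879 at P7. The 9 epicardial markers, with 3 higher and 0 lower, summed to 171 to 178 FPKM and then 389 to 403. Of 12 endothelial markers 2 were higher and 2 lower at P7, and their sums overlapped (338 to 603 FPKM at E18.5, 502 to 595 at P7). Among 9 macrophage markers tested 1 was higher and 1 lower, and the sum was 53.3 to 54.9 FPKM before birth and 113 to 134 at P7. The cardiomyocyte and fibroblast markers moved with every comparison of ages below. From P1 to P7, 0 erythroid and 0 macrophage markers were called. The part of all these markers in the junction gene results was not tested. In such bulk libraries fewer cells of a type and less RNA per cell cannot be told apart.

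Over the perinatal window the 10 junction genes took separate courses. All 4 genes counted as desmosomal, the connexin gene Gja1 and the catenin gene Ctnna3 were called lower at P7 than at E18.5. The rule for a call is given below. Jup and Gja5 also lay lower in both P7 libraries than in both E18.5 libraries, but were not called. N-cadherin (Cdh2) and the connexin gene Gjc1 differed from E18.5 by 0.34 and -0.01 log2 units at P7, with higher values at P1 and P3. A gene was called where limma gave a two-sided Benjamini-Hochberg adjusted p under 0.05 over all genes tested and the change exceeded 1 on the scale of log2(FPKM + 1), a scale that understates changes of genes near or under 1 FPKM. By this rule 6 of 10 junction genes were called at P7 against E18.5, all 6 lower, where 27.7% of 13979 tested genes were called and 12.3% were called lower. The median log2 fold change was -1.63 over the 10 genes and 0.15 over all genes tested.

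**Figure D1:**
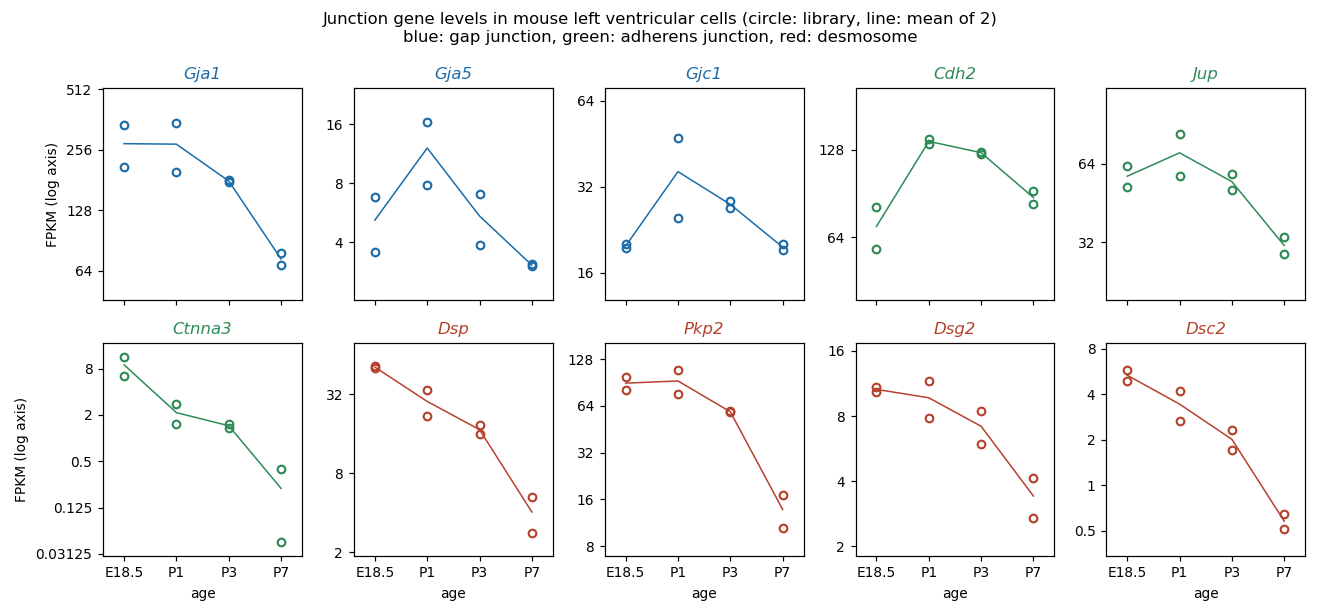
FPKM (log axis, scaled for each gene) of the 10 junction genes by age in mouse; each circle is 1 of 2 libraries and lines join the means. Dsp, Pkp2, Dsg2, Dsc2, Ctnna3, Gja1, Jup and Gja5 lay lower in both P7 libraries than in both E18.5 libraries. Cdh2 was highest at P1 and P3.

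Ordered by level, which FPKM allows because it is scaled per transcript length, the genes spanned a wide range. At E18.5 Gja1 stood first in both libraries, followed by Pkp2, Cdh2, Jup and Dsp. These genes held the same order within both libraries, although the values of Pkp2 and Cdh2, Cdh2 and Jup, and Jup and Dsp overlapped between libraries. Gjc1 came next at 19.5 and 20.2 FPKM and was apart from Dsp above and Dsg2 below. Dsg2, Ctnna3, Dsc2 and Gja5 filled the lowest places. At P7 Cdh2 stood first in both libraries and Gja1 second, without overlap, followed by Jup, Gjc1 and Pkp2. Dsp, Dsg2 and Gja5 then overlapped, and Dsc2 and Ctnna3 were under 1 FPKM in both P7 libraries. The ratio of Cdh2 to Gja1 was 0.241 and 0.277 at E18.5, 0.402 and 0.677 at P1, 0.696 and 0.704 by P3 and 1.07 and 1.35 by P7.

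Gja1 encodes connexin 43, the main gap junction channel of working ventricular muscle, and lies on chromosome 10 (chr10:56377330-56402513, plus strand, mm10). Its promoter and those of Gja5, Jup and Dsp are shown because the ATAC-seq peaks described below lie on them or are missing from them. Each is the 250 bases before the RefSeq start site (GRCm38.p6, 5′ to 3′ on the strand of the gene), with capitals for matches to the AP1 motif TGACTCA or the GC box GGGCGG on either strand.
Gja1, chr10:56377050-56377299: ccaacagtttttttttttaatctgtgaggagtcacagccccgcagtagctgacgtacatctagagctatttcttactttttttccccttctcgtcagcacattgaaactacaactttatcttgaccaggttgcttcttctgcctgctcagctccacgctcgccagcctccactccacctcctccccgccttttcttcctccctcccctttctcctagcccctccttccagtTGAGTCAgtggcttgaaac
Gja5, chr3:97032152-97032401: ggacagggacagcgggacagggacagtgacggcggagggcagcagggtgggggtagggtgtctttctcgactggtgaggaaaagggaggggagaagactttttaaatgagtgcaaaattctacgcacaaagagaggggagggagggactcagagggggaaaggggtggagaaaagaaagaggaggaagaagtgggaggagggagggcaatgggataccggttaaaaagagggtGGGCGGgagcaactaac
Jup, chr11:100397791-100398040, minus strand: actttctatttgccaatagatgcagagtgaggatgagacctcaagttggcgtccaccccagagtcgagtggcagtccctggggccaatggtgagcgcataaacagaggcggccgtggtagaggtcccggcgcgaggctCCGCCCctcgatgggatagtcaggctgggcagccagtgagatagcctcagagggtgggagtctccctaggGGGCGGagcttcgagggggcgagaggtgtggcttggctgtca
Dsp, chr13:38151044-38151293: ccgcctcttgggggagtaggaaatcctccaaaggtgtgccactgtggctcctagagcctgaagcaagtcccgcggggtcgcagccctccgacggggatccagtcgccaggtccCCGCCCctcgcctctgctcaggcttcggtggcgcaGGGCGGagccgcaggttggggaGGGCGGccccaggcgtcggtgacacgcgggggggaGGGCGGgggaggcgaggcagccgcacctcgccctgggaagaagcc
The Gja1 sequence held 1 AP1 match, beginning 19 bases before the start site, and no GC box, whereas that of Dsp held 4 GC boxes, that of Jup 2 and that of Gja5 1. Among 32851 RefSeq promoters of 300 bases (250 before to 50 after the start), 5.2% held an AP1 match and 35.7% a GC box. The TATA box TATAAA, found in 13.6% of promoters, and the MEF2 motif, found in 3.19%, matched none of these 4 promoters. The GC content of the 300-base promoters was 47.7% for Gja1, 55.7% for Gja5, 60.7% for Jup and 73.0% for Dsp, against a median of 52.7% over all promoters. A match describes letters and does not show that a factor binds there. Of the 10 genes, 5 have an entry in the RefSeq promoter table.

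Gja1 RNA was at 338 and 211 FPKM in the E18.5 libraries, 198 and 347 at P1, 176 and 181 by P3 and 68.3 and 78.2 by P7. The P7 libraries were the lowest and did not overlap those of any earlier age, while the E18.5 and P1 libraries spanned the same range. The mean fell from 274 ± 89.8 to 73.2 ± 7.00 FPKM (SD, n = 2), 3.74-fold, between E18.5 and P7 (log2 fold change -1.85, SE 0.29, adjusted p = 0.000894, limma). At P3 the log2 fold change was -0.57 (95% interval -1.23 to 0.08, adjusted p = 0.13, limma), which did not pass. A single transcript, ENSMUST00000068581, carried 98.9% to 99.9% of Gja1 FPKM in every mouse library.

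Gja5, on chromosome 3 (chr3:96904693-97077416, plus strand), encodes connexin 40, a channel of the atria and the conduction system. It was at 6.80 and 3.56 FPKM at E18.5, 7.79 and 16.5 at P1, 7.02 and 3.86 by P3 and 3.02 and 3.08 by P7. The P1 libraries lay above those of every other age and the P7 libraries lay below. The difference at P1 missed the threshold (log2 fold change 1.05, SE 0.39, adjusted p = 0.0597, limma). It was called with TPM (1.34, adjusted p = 0.0302, limma) and was 0.88 with median-of-ratios scaling (adjusted p = 0.101, limma). It was 1.44 without E18.5 replicate 1, 1.55 without P1 replicate 1 and 0.56 without P1 replicate 2. The difference between P7 and E18.5 was -0.56 (adjusted p = 0.249, limma). Between P1 and P7, however, Gja5 was called lower, from 12.1 ± 6.12 to 3.05 ± 0.0453 FPKM (SD, n = 2; log2 fold change -1.61, adjusted p = 0.0237, limma), a call lost without P1 replicate 2 (-1.12, adjusted p = 0.137), without either P7 library (adjusted p 0.0849 and 0.103) and with no filter on low values (0.111).

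Gjc1, on chromosome 11 (chr11:102799579-102819700, minus strand), encodes connexin 45, the connexin of the early heart tube and of nodal tissue. It was at 19.5 and 20.2 FPKM at E18.5, 24.8 and 47.4 at P1, 27.0 and 28.4 by P3 and 19.2 and 20.1 by P7. Both P1 and both P3 libraries lay above both E18.5 libraries. Its log2 fold change at P1 was 0.76 (SE 0.25, adjusted p = 0.042, limma), under the fold threshold. It was called without P1 replicate 1 (1.22, adjusted p = 0.00226) and with TPM (1.01, adjusted p = 0.015), and was 0.31 (adjusted p = 0.151) without P1 replicate 2. At P7 the log2 fold change was -0.01 (95% interval -0.60 to 0.57, adjusted p = 0.967). The 3 connexin genes together summed to 364 and 234 FPKM at E18.5 and to 90.5 and 101 at P7. Gja1 made up 92.8% and 89.9% of that sum before birth, 85.9% and 84.5% at P1, 83.8% and 84.9% by P3 and 75.5% and 77.1% by P7. Over the same ages the Gjc1 share was 5.35% and 8.60%, 10.8% and 11.5%, 12.8% and 13.3%, and 21.2% and 19.8%. The Gja1 shares at P1 and P3 overlapped and lay between those of E18.5 and P7.

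Among adherens junction genes, Cdh2 on chromosome 18 (chr18:16588877-16809246, minus strand) encodes N-cadherin, the classical cadherin of heart muscle, which binds its like on the next cell. It was at 81.3 and 58.3 FPKM at E18.5, 134 and 140 at P1, 124 and 126 by P3 and 92.1 and 83.4 by P7. Every postnatal library was above both E18.5 libraries, and P7 lay between E18.5 and P3. The log2 fold change was 0.98 at P1 (SE 0.16, adjusted p = 0.00234, limma), 0.85 at P3 (adjusted p = 0.0032) and 0.34 at P7 (95% interval -0.03 to 0.71, adjusted p = 0.103). The values at P1 and P3 passed on p but not on fold. On TPM they passed on both, at 1.22 and 1.11, and with median-of-ratios scaling they were 0.78 and 0.64. From P1 to P7 Cdh2 changed by -0.64 (adjusted p = 0.0284, limma), again under the fold threshold. One transcript carried at least 99.7% of its FPKM in each library.

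Jup, on chromosome 11 (chr11:100368958-100397763, minus strand), encodes plakoglobin, the catenin that serves both adherens junctions and desmosomes. Its FPKM was 62.5 and 52.0 at E18.5, 57.5 and 83.1 at P1, 50.7 and 58.5 by P3 and 33.5 and 28.8 by P7. Only the P7 libraries were apart from E18.5. The difference at P7 was -0.86 on the log2 scale (SE 0.19, adjusted p = 0.00616, limma), below the fold threshold. It became a call with median-of-ratios scaling at -1.04 and was -0.61 with TPM. Against P1, Jup was called lower at P7 (-1.13, adjusted p = 0.00578, limma), though not without P1 replicate 2 (-0.87).

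Ctnna3, on chromosome 10 (chr10:63430098-65003667, plus strand), encodes alpha-T-catenin, a heart and testis catenin that links cadherins to actin and binds plakophilin 2. It was at 6.43 and 11.5 FPKM at E18.5, 1.51 and 2.77 at P1, 1.54 and 1.35 by P3 and 0.400 and 0.0444 by P7. No postnatal library reached the lower E18.5 library, and both P7 libraries were under every other. It was the single junction gene called at P1 against E18.5 (log2 fold change -1.64, SE 0.30, adjusted p = 0.00367, limma), 1 of 10 where 16.2% of tested genes were called and 6.06% were called lower. The log2 fold change reached -1.98 at P3 (adjusted p = 0.00114) and -2.99 at P7 (adjusted p = 0.000102). Its transcripts were divided, with ENSMUST00000105440 at 45.5% of Ctnna3 FPKM and ENSMUST00000075099 at 41.6% on average at E18.5, and only the former above 0 at P7.

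Dsp, on chromosome 13 (chr13:38151294-38198577, plus strand), encodes desmoplakin, the plaque protein that ties the desmosome to desmin filaments. It was at 52.5 and 50.7 FPKM at E18.5, 21.8 and 34.7 at P1, 15.9 and 18.6 by P3 and 5.30 and 2.83 by P7. The libraries of the 4 ages did not overlap and descended from each age to the next. The mean fell from 51.6 ± 1.26 to 4.06 ± 1.75 FPKM (SD, n = 2), 12.7-fold, from E18.5 to P7 (log2 fold change -3.42, SE 0.27, adjusted p = 3.79e-05, limma). At P1 its change of -0.88 (adjusted p = 0.0326, limma) was short of the fold threshold. It was called there with median-of-ratios scaling (-1.08, adjusted p = 0.0139) and without P1 replicate 2 (-1.20, adjusted p = 0.0183), and was -0.56 (adjusted p = 0.188) without P1 replicate 1. At P3 it was called at -1.53 (adjusted p = 0.00247). The gene has a long and a short form that differ in the rod domain. The transcript of 9592 bases carried 81.1%, 80.9%, 81.2% and 85.8% of Dsp FPKM on average at E18.5, P1, P3 and P7, and that of 7761 bases carried nearly all of the rest.

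Pkp2, on chromosome 16 (chr16:16213318-16272712, plus strand), encodes plakophilin 2, the armadillo protein that brings desmoplakin to the junction. Its FPKM was 98.7 and 80.6 at E18.5, 76.9 and 108 at P1, 59.1 and 58.1 by P3 and 17.2 and 10.4 by P7. Unlike Dsp, it overlapped between E18.5 and P1, and most of its decrease lay between P3 and P7. The mean went from 89.6 ± 12.8 to 13.8 ± 4.78 FPKM (SD, n = 2), 6.50-fold lower at P7 than at E18.5 (log2 fold change -2.65, SE 0.24, adjusted p = 6.93e-05, limma), with 0.03 at P1 and -0.60 at P3, neither of which passed.

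The desmosomal cadherin genes Dsg2 (desmoglein 2, chr18:20558074-20604521, plus strand) and Dsc2 (desmocollin 2, chr18:20030633-20059554, minus strand) lie on the same chromosome. Their proteins span the gap between cells. Dsg2 was at 10.9 and 10.3 FPKM at E18.5, 7.83 and 11.6 at P1, 5.96 and 8.41 by P3 and 4.12 and 2.72 by P7. Dsc2 was lower throughout, at 4.86 and 5.83 FPKM at E18.5, 2.66 and 4.23 at P1, 1.72 and 2.31 by P3 and 0.644 and 0.511 by P7. Both were lower in the P3 and P7 libraries than in the E18.5 libraries, and Dsc2 at P1 as well. At P7 against E18.5 the log2 fold change was -1.41 for Dsg2 (SE 0.24, adjusted p = 0.00161, limma) and -2.01 for Dsc2 (SE 0.22, adjusted p = 0.000147). Dsc2 was already called at P3 (-1.08, adjusted p = 0.00429, limma), a call that fell under the fold threshold without E18.5 replicate 2 (-0.97) or without P3 replicate 1 (-0.94).

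By group, 4 of 4 desmosomal genes were called lower at P7 with a median log2 fold change of -2.33, against 1 of 3 gap junction genes (median -0.56) and 1 of 3 adherens junction genes (median -0.86). Jup, which serves both adherens junctions and desmosomes, is counted here as an adherens junction gene. It was at -0.86 and was not called, so the split between groups depends on where it is placed. At P3 against E18.5 the calls were Ctnna3, Dsp and Dsc2, 3 of 10, all lower, where 21.9% of tested genes were called and 8.88% were called lower. The comparisons with E18.5 share the same 2 E18.5 libraries. From P1 to P7, which shares its libraries with them, 8 of 10 junction genes were called, all lower, where 8.91% of tested genes were called and 5.46% were called lower. Cdh2 and Gjc1 were the genes not called. The largest of these changes were -2.68 for Pkp2 (adjusted p = 0.000843, limma) and -2.54 for Dsp (adjusted p = 0.00108). The count of 8 fell to 4 without P1 replicate 2, which left Gja1, Dsp, Pkp2 and Dsc2, and to 5 without P7 replicate 2. Libraries did not overlap for 6, 8 and 9 of 10 junction genes at P1, P3 and P7 against E18.5, where 69.6%, 74.8% and 78.3% of tested genes did not overlap, and for 10 of 10 from P1 to P7 (62.7% of tested genes).

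**Figure D2:**
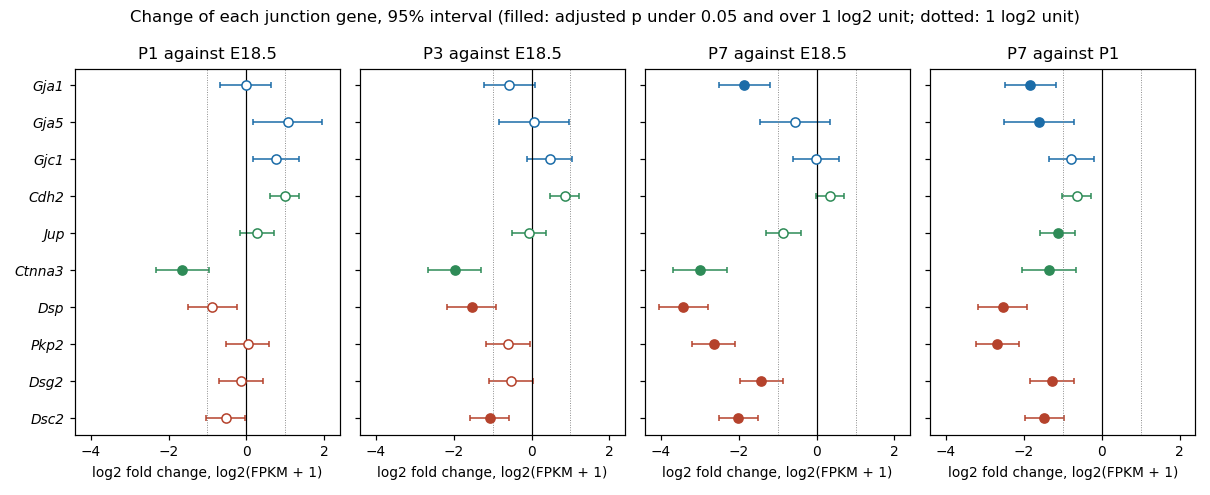
Log2 fold change of log2(FPKM + 1) with its 95% interval for each junction gene in 4 comparisons of ages; filled symbols were called. The desmosomal genes (red) had changes of -1.41 to -3.42 at P7 against E18.5, while Gjc1 and Cdh2 were at -0.01 and 0.34.

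Because the cardiomyocyte markers moved with age, each junction gene was also set against them in the same library, as its log2(FPKM + 1) minus the mean of the 16 markers. The mean of the markers itself changed by -4.39 from E18.5 to P7. The change of each gene minus that of the markers was 4.73 for Cdh2, 4.37 for Gjc1, 3.83 for Gja5, 3.53 for Jup, 2.97 for Dsg2, 2.53 for Gja1, 2.38 for Dsc2, 1.74 for Pkp2, 1.39 for Ctnna3 and 0.96 for Dsp, all above 0. The value of Ctnna3, under 1 FPKM at P7, turned to -0.47 with a pseudocount of 0.1 in place of 1, an alternative added after the values were seen, and that of Dsc2, also under 1 FPKM, was 1.54. The other 8 genes were then at 0.84 (Dsp) to 4.89 (Cdh2), so 9 of 10 genes were higher relative to the markers at P7 under both. Desmoplakin was at -4.12 and -4.49 in the E18.5 libraries and -3.52 and -3.16 in the P7 libraries. N-cadherin went from -3.50 and -4.29 to 0.37 and 1.31. Ctnna3 alone had lower values at P1 (-7.27 and -7.34) than at E18.5 (-6.97 and -6.54). These differences are descriptions, since 2 libraries against 2 allow no exact p under 0.333. Fibroblasts and other cells of the heart also make N-cadherin, connexin 43 and connexin 45, and their part in these values was not tested.

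**Figure D3:**
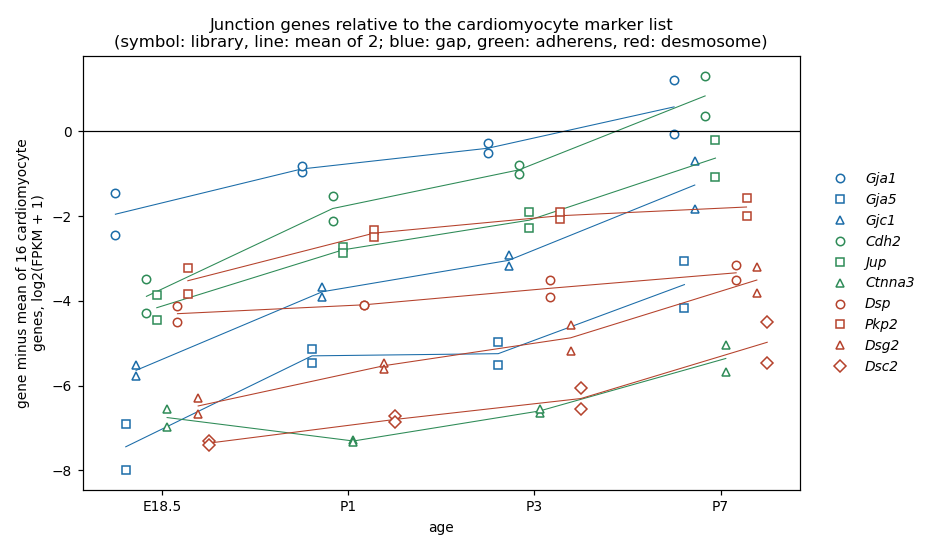
Level of each junction gene minus the mean of 16 cardiomyocyte marker genes, in log2(FPKM + 1), by age; symbols are libraries and lines join means. Dsp changed by 0.96 from E18.5 to P7 and Cdh2 by 4.73, and the value of Ctnna3, 1.39 here, turns to -0.47 with a pseudocount of 0.1 in place of 1.

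Across the 8 mouse libraries, which share the change in markers with age, the desmosomal genes tracked one another with Pearson r from 0.915 to 0.984 on log2(FPKM + 1). This was not particular to them. With the desmosomal genes, r was 0.907 to 0.953 for Gja1, 0.825 to 0.949 for Jup and 0.774 to 0.938 for Ctnna3. Cdh2 and Dsp had r = -0.06, and Cdh2 was closest to Gjc1 among the 10 genes (r = 0.73). The genes most like Dsp were Nrap (r = 0.999), Hspb7, Myo18a, Popdc3 and Hrc, of which Nrap encodes a myofibril and disc protein and Hrc a calcium-binding protein of the sarcoplasmic reticulum. Those most like Gja1 were Wdr13 (r = 0.988), 6330403L08Rik, Insr, Mid2 and Ncbp3, and those most like Cdh2 were Plxna4 (r = 0.992), Slc6a6, Kpna6, Alkbh8 and Baalc. These are descriptions over 8 libraries of 4 ages.

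Other genes of the disc and of cell junctions gave a background of their own. Of 64 listed genes, 41 passed the expression filter. Against E18.5 the calls were 7 higher and 5 lower for P1, 7 higher and 10 lower for P3, and 7 higher and 20 lower for P7, where 10.1%, 13% and 15.4% of all tested genes were called higher and 6.06%, 8.88% and 12.3% lower. The P1 total of 12 fell to 7 without E18.5 replicate 2. From P1 to P7, 0 were called higher, where 3.45% of tested genes were, and 17 lower, where 5.46% were. Among 21 genes whose proteins associate with the disc, 14 were lower and 1 higher at P7 against E18.5 (median -1.33). Xirp1, an actin-binding protein, had the largest fall there, from 59.7 ± 13.5 to 1.73 ± 1.14 FPKM (SD, n = 2; -4.52, adjusted p = 3.18e-05, limma), and Zyx (zyxin) was the one that rose (1.12, adjusted p = 0.000155). Desmin (Des), the filament that desmoplakin anchors, fell by 3.60 on the log2 scale at P7, from 499 ± 40.7 to 41.1 ± 12.8 FPKM, and had been called lower at P1 (-1.08) and at P3 (-1.58).

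At P1 the filamin gene Flnc had the largest fall among disc-associated genes (-1.63, limma). At P3 Zyx rose most (1.19) and Xirp1 fell most (-2.32), and from P1 to P7 Xirp1 again had the largest fall (-3.49).

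Other adherens junction genes had a smaller median change. Of 11 tested, 2 were called higher and 3 lower at P7 against E18.5 (median 0.22), where 15.4% and 12.3% of all tested genes were. The largest rise was in Nectin2, a cell adhesion molecule (1.64, adjusted p = 3.53e-05, limma), and the largest fall in Pkp4 (-1.31). Nectin2 was also the one called higher at P1 (1.54) and at P3 (1.60), while Arvcf was the one called lower at P3 (-1.21). The catenins Ctnna1 (alpha-E-catenin) and Ctnnb1 (beta-catenin) were at -0.40 (adjusted p = 0.0512) and 0.22 (adjusted p = 0.224) at P7, and vinculin (Vcl) and ZO-1 (Tjp1) at 0.22 and -0.41, none of which passed. From P1 to P7 Ctnna1 (-1.16) and Pkp4 (-1.21) were the genes called.

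Among 6 other connexin and pannexin genes tested, 4 were higher and 1 lower at P7 against E18.5 (median 1.51). Of all tested genes, 15.4% were called higher and 12.3% lower there. Gja3 (connexin 46) was the lower one, from 11.1 ± 1.55 to 0.948 ± 0.800 FPKM (SD, n = 2; -2.69, adjusted p = 0.000159, limma). Gja4 (connexin 37), an endothelial connexin, rose most at P1 (1.78) and P3 (2.96). Gja3 was the one called from P1 to P7 (-2.84). Of 3 other desmosome genes tested, Perp was lower at P7 (-3.04, adjusted p = 0.000146, limma) and from P1 to P7 (-2.64), and periplakin (Ppl) was lower at P1 (-1.20), P3 (-1.12) and P7 (-1.04).

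ATAC-seq peaks within 2.5 kb of any transcript start were then read for the 10 genes in the deposited peak lists, whose lengths were 13149 and 14910 for E18.5, 29281 and 19753 for P1, 95257 and 52040 for P3, and 49113 and 35898 for P7. Both libraries of an age held such a peak for 5 of 10 junction genes before birth, 3 at P1, 9 by P3 and 8 by P7, where 56.7%, 41.3%, 87.5% and 83.2% of the 13979 tested genes had one. P1 replicate 2 held 3 and P1 replicate 1 held 7. Taking the same number of highest-scoring peaks from each list left 5 genes before birth, 2 at P1, 1 by P3 and 1 by P7. There 54.1%, 31.5%, 37.3% and 45.2% of tested genes had one. The counts thus depended on the number of peaks taken, and they still differed between ages with equal numbers. What set these counts was not tested.

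Gja1 was the one junction gene with a peak in both libraries at P3, and again at P7, and in neither at E18.5, 1 of 10 where 15.6% and 12.1% of tested genes gained one, and 0 of 10 did so with equal numbers of peaks. At P1 no junction gene gained or lost a peak in this way (1.37% and 3.81% of tested genes did), and none lost one at P3 or P7 (0.0715% and 0.0286%). With equal numbers of peaks, 3 of 10 lost one at P1 (11.5% of tested genes), 3 at P3 (8.98%) and 2 at P7 (3.23%). A peak at its start (chr10:56377092-56377386 over the libraries) was listed in P1 replicate 1, P3 replicate 1 and both P7 libraries, with fold enrichment at the summit of 4.38, 4.41, 4.10 and 3.73 and -log10 q of 3.08, 8.58, 6.92 and 4.41. All 4 peaks covered the AP1 match shown above. A further region (chr10:56377890-56379313) had a peak in all P3 and P7 libraries. Gja1 RNA was at its highest in the libraries of ages with no peak or 1 peak here, E18.5 and P1, and at its lowest at P7.

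Dsp and Jup were the genes with a peak over one and the same region at the start in all 8 libraries. The Dsp peaks (chr13:38151165-38151645) had fold enrichments of 5.78 and 4.29 before birth, 4.60 and 3.51 at P1, 4.79 and 4.28 by P3, and 3.22 and 4.29 by P7, ranges that overlapped between E18.5 and P7. Those over the Jup start (chr11:100397409-100398111) had values from 4.97 in P7 replicate 1 to 8.93 in P3 replicate 2. Both GC boxes of Jup lay under the peaks of at least 7 libraries. The Dsp box nearest the start lay under those of 6, and the boxes further upstream under those of 4, 3 and 0.

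For Gja5 and Ctnna3 the peaks lay away from the start of the transcript with the highest mean FPKM. No library listed a peak within 2.5 kb of the main Gja5 start, position 97032416 of chromosome 3, next to the sequence printed above. The Gja5 peak, in 7 of 8 libraries (chr3:96904799-96905555), was near a far upstream start whose transcript carried 1.34% to 7.33% of Gja5 FPKM. Ctnna3 likewise had none at the start of ENSMUST00000075099 (63504037 on chromosome 10) but had peaks at the start of ENSMUST00000105440 (63457510) in 5 libraries, both at E18.5, both at P3 and 1 at P7. A peak at another start (63430098), whose transcript carried at most 2.29% of Ctnna3 FPKM, was listed in 7 libraries.

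The remaining genes had peaks in some libraries. Pkp2 had one near its start in 5 libraries (E18.5 replicate 2, P1 replicate 1, both P3 and P7 replicate 2), with fold enrichments from 3.48 to 6.13. Gjc1 also had one in 5 (E18.5 replicate 1 and all P3 and P7 libraries), as did Dsc2 (E18.5 replicate 2 and all P3 and P7 libraries), and Dsg2 had one in P3 replicate 1 alone, the longest list. Cdh2 had a peak in every library, spread over 3 regions near its start. Gjc1 FPKM was divided over several starts. ENSMUST00000068933 carried 46.8%, 55.8%, 64.9% and 35.3% of its FPKM on average at E18.5, P1, P3 and P7. ENSMUST00000092567, whose start (102819700) lies inside the region of these peaks, carried 13.5%, 15.1%, 17.6% and 44.1%. ENSMUST00000107075, with no listed peak within 2.5 kb of its start (102804901), carried 35.65%, 25.1%, 14.23% and 17.7%. Over single libraries these shares ranged from 25.27% to 70.55%, from 12.29% to 52.1% and from 5.19% to 43.12%, in that order.

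**Figure D4:**
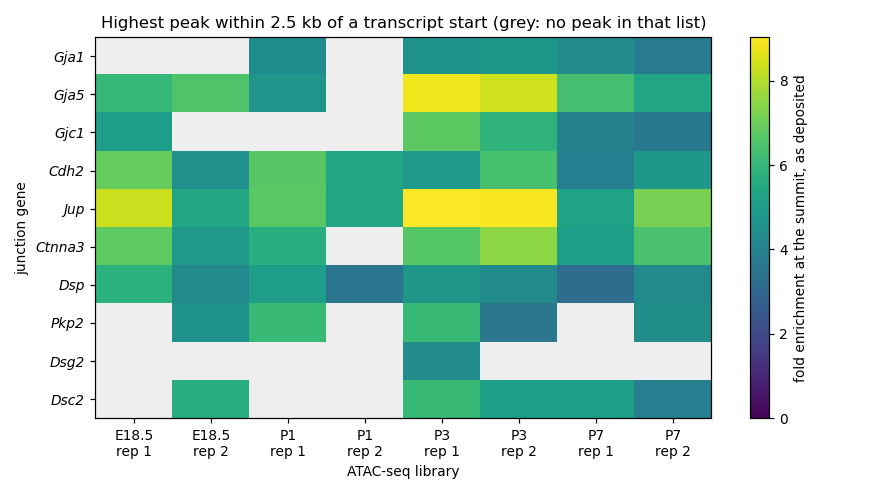
Fold enrichment at the summit of the most enriched peak within 2.5 kb of a transcript start of each junction gene in each ATAC-seq library, as deposited; grey marks no peak in that list. Jup, Dsp and Cdh2 had a peak in all 8 libraries, Gja1 in neither E18.5 library and Dsg2 in P3 replicate 1 alone.

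In the rat cells TSA and DMSO were compared to ask how blocking histone deacetylases changed RNA in newborn ventricular cardiomyocytes. None of the 8 junction genes found was called (0 of 8 by limma, and 0 at an unadjusted p under 0.05), where 2.13% of 13625 tested genes were called, 1.81% higher and 0.316% lower. The median log2 fold change was 0.04 over the 8 genes and 0.03 over all genes. Exact two-sided permutation p values ranged from 0.1 to 1 over the 8 genes, and 0.1 is the smallest that 3 libraries against 3 allow. That test does not use a pairing of same-numbered libraries, which the labels do not state. In all 3 pairs Gja5 and Dsg2 were lower and Cdh2 and Dsp higher with TSA, where the exact two-sided paired test, added after the values were seen, gives 0.25, the smallest p that 3 pairs allow. With the replicate block in limma the adjusted p was 0.11 for Gja5, 0.264 for Dsg2, 0.214 for Cdh2 and 0.242 for Dsp.

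DMSO replicate 3 stood apart for Gja1, at 78.1 FPKM against 305 and 296 in the other two, while the TSA libraries were at 298, 309 and 359. The log2 fold change of Gja1 was 0.74 (95% interval -0.45 to 1.93, adjusted p = 0.481, limma) and was 0.01 without both libraries numbered 3, a comparison added after the values were seen. That library also held Dcn at 89.8 FPKM against 186 and 178 in the other DMSO libraries. The fibroblast markers together did not follow Dcn, at a sum of 6514 to 7115 FPKM over the DMSO libraries. The part of the Dcn difference in the Gja1 value was not tested. Cdh2 was at 218, 210 and 154 FPKM with DMSO and 237, 236 and 201 with TSA (0.22, 95% interval -0.15 to 0.60). Dsp was at 75.7, 77.1 and 50.7 with DMSO and 82.1, 84.5 and 75.1 with TSA (0.27, interval -0.14 to 0.68). In each of these 3 genes the lowest DMSO library was replicate 3, and the groups overlapped.

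Dsg2 was the one junction gene whose rat groups did not overlap (27.2% of tested genes did not), at 27.6, 26.1 and 26.4 FPKM with DMSO and 23.7, 25.2 and 20.4 with TSA. Its log2 fold change was -0.20 (95% interval -0.46 to 0.05, adjusted p = 0.359, limma; exact permutation p = 0.1, n = 3). Gjc1 was at 22.2, 19.5 and 19.97 FPKM against 21.3, 20.2 and 23.0 with TSA (0.06, interval -0.18 to 0.31), and Jup at 66.4, 66.0 and 62.2 against 68.5, 75.5 and 54.0 (0.01, interval -0.31 to 0.33). Gja5 was at 17.9, 21.0 and 12.1 FPKM with DMSO and 14.9, 16.7 and 7.95 with TSA (-0.37, interval -1.09 to 0.35), and Dsc2 at 2.97, 2.88 and 6.36 against 3.41, 3.44 and 4.47 (-0.03, interval -0.67 to 0.61). In both the libraries numbered 3 were the extreme ones of their group. Changes of 1 log2 unit lay outside the intervals of all of these genes other than Gja1 and Gja5.

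Of 39 other junction and disc genes tested in rat, 0 were called by limma, and 4 had an unadjusted p under 0.05. Without both libraries numbered 3 there were 2, chosen here after their values were seen: the muscle genes Xirp2 (-1.08, adjusted p = 0.0215, limma) and Lrrc10 (-1.12, adjusted p = 0.0166). The 15 cardiomyocyte markers found in rat summed to 16930 to 21820 FPKM with DMSO and 16040 to 30860 with TSA, with 1 called higher, and the fibroblast markers to 6514 to 7115 and 3630 to 6081.

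**Figure D5:**
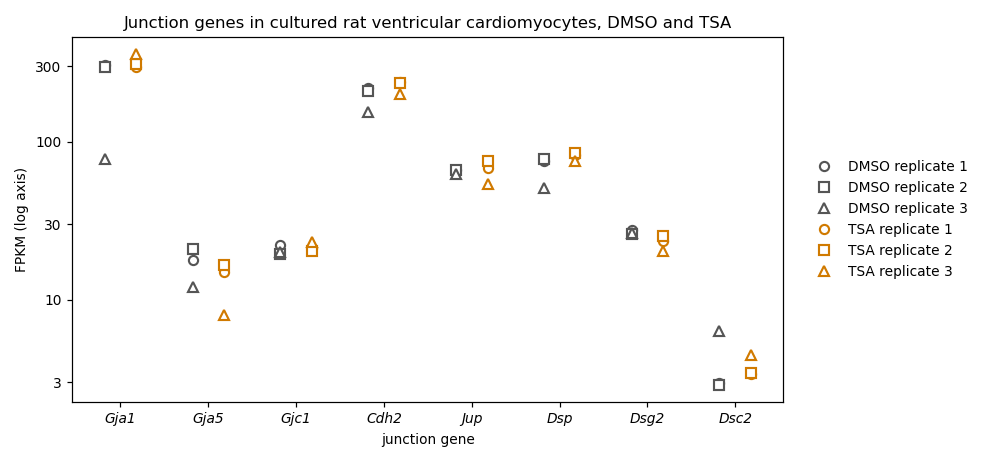
FPKM (log axis) of the 8 junction genes found in rat, with DMSO (grey) and TSA (orange); symbols mark replicate numbers. The groups overlapped for every gene except Dsg2, and DMSO replicate 3 was at 78.1 FPKM for Gja1 against 296 to 359 in the other 5 libraries.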

How the data were processed

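The authors aligned the reads with HISAT2 2.1.0 and ran StringTie, version 1.3.5 for mouse on mm10 with GENCODE vM21 and 1.3.4d for rat on Rnor_6.0, per the file headers and the methods. The authors' deposited FPKM is scaled for the length of the transcript and the reads aligned, the deposited TPM to a fixed total per library, and the deposited coverage, a mean read depth per base, is not normalized. For each ATAC-seq library the authors removed duplicates, ran MACS2 (mm10) and dropped blacklisted regions. Each deposited peak carries a fold enrichment (a ratio of signal to background), -log10 p and -log10 q values, and a score that the authors' MACS2 run made from q.

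FPKM was summed over the transcripts of a gene. Genes at FPKM 1 or more in at least 2 mouse or 3 rat libraries were tested on log2(FPKM + 1) with limma 3.58.1 in R 4.3.3 (lmFit, contrasts.fit, eBayes with trend), all mouse ages in 1 fit, two-sided, with Benjamini-Hochberg adjustment. The scripts were tested on simulated data. In rat, same-numbered DMSO and TSA libraries deviated together (r = 0.224, 0.194 and 0.346). So did DMSO replicate 2 with TSA replicate 1 (0.167) and DMSO replicate 1 with TSA replicate 2 (0.09). Libraries numbered 3 deviated against those numbered 1 and 2 (r from -0.27 to -0.2). Pairing by number thus rests on these values, not on the labels, and is weak between numbers 1 and 2. The members and lists were chosen with earlier results of these data known. Named genes are the 10 members, the called gene with the largest rise and fall of each other junction list, a few fixed junction partners and the genes most like Gja1, Cdh2 and Dsp. Some genes that this rule names are not reported here. Alternatives were a pseudocount of 0.1, no filter, TPM in place of FPKM, a minimum mean of FPKM 5, size factors by median of ratios, voom weights on estimated reads, a replicate block, fits of 2 ages only, each library left out, and, for peaks, other limits, stricter q and equal numbers of peaks. Intervals are 95%.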

Additional observations from a re-analysis of the deposited data

How the results depend on the processing

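With TPM and with median-of-ratios size factors the median of all genes at P7 against E18.5 was 0.40 and -0.01, and 0.15 as reported, and the share of calls that were higher was 68.1% and 45.5%, and 55.7% as reported. The same shares were 77.3%, 45.7% and 62.5% at P1 and 74.4%, 45.7% and 59.4% at P3. The 6 calls of junction genes at P7 against E18.5 became 7 with median-of-ratios size factors, and 4 of 8 genes tested at a mean FPKM of at least 5. The count at P1 (1 as reported) was 0 at a mean FPKM of at least 5, which Ctnna3 does not reach, 4 with TPM, 2 with median-of-ratios size factors and 1 to 4 with 1 library left out. At P3 (3) it was 1 at a mean FPKM of at least 5, which removes Ctnna3 and Dsc2, and 2 to 4 with 1 library left out, and from P1 to P7 (8) it was 4 to 9. Other junction genes numbered 7 to 12 at P1 with 1 library left out and 2 in rat without both libraries numbered 3, an alternative added after the data were seen. Where 1 of 2 libraries was left out, the lone library was assumed to vary like the other groups.

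Changes of sign concerned genes that were not called. At P1 these were Gja1 (0.21) and Dsg2 (0.0804) with TPM and Pkp2 (-0.17) with median-of-ratios size factors, at P3 Jup (0.18) with TPM and Gja5 (-0.11) with median-of-ratios size factors, and at P7 Gjc1 (0.24) with TPM. In rat they were Gjc1 (-0.0069) and Jup (-0.0615) with TPM, Jup (-0.0286) with median-of-ratios size factors, and Gjc1 (-0.0047) and Dsc2 (0.17) without both libraries numbered 3. The cause was not tested. The level of Ctnna3 relative to the cardiomyocyte markers also changed sign, from 1.39 to -0.47, with a pseudocount of 0.1. With 1 library left out, log2 fold changes ranged from -0.43 to 0.38 for Gja1, -0.21 to 0.28 for Pkp2 and -0.40 to 0.12 for Dsg2 at P1, from -0.32 to 0.45 for Gja5 and -0.20 to 0.0658 for Jup at P3, from -0.0469 to 0.0202 for Gjc1 at P7, and from -0.092 to 0.15 for Jup and -0.19 to 0.28 for Dsc2 in rat.

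Genes with a promoter peak in both libraries numbered 2 at E18.5 (5 as reported) and 4 at P7 (8) at a -log10 q of at least 5, and 1 at P3 (9) and 1 at P7 with equal numbers of peaks. With 1 library left out they numbered 6 to 7 at E18.5, 3 to 7 at P1, 9 to 10 at P3 and 8 to 9 at P7. Same-numbered mouse libraries did not deviate together at all ages (r from -0.096 to 0.171), so they share only a number. With the replicate block the junction genes called numbered 1, 3, 6 and 8 in the 4 mouse comparisons and 0 in rat, and no call of a junction gene changed with this pairing.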
